A study of Arabidopsis thaliana with 26 samples.

Results

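The libraries described here are the 6 growth light libraries made from whole seedlings of Arabidopsis thaliana, line Col-0, at 24, 48 and 72 h, 2 per time, out of 26 libraries in the series. They were chosen by title alone (GL24h, GL48h and GL72h), so the labels give them one light, one temperature and one line, and only time differs. Seedlings had stood for 7 days at 22 °C under continuous light of 60 µmol photons (per m2 and second) before time 0, and the growth light plates stayed there. Each library was made from 25 pooled plants and 4 µg of total RNA with a stranded mRNA kit and was sequenced single-end. The same interval in high light, HL72h against HL24h, is set beside them: those seedlings had the same line and age and received 1200 µmol photons (per m2 and second) from time 0, while their leaves were kept at a stated 22 °C. The remaining libraries hold earlier growth light times, other high light times and a recovery group. They enter only the choice of tested genes, the scaling and the shared estimate of the spread between replicates.

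Seedlings of this age move from the juvenile to the adult vegetative phase. In that passage the microRNA miR156 declines with age and releases its targets, the SPL transcription factors, while miR172 gains and acts on AP2-like repressors of flowering. SPL proteins and the MADS-box factors SOC1 and FUL then promote flowering, and growth of the young leaves needs cell division, ribosome synthesis and wall loosening. Flavonoids and anthocyanins, which screen light, are made by a pathway that starts at chalcone synthase and is switched by MYB factors such as PAP1.

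The microRNAs and their matches in the measured mRNAs are shown first, since the flowering results turn on these target genes. Sequences are from the RefSeq annotation and genome, TAIR10.1, and capitals mark the seed (bases 2 to 8) in a microRNA and the bases opposite it in an mRNA. The miR156a strand lies at chr2:10676534-10676553 on the minus strand and the miR172a strand at chr2:11942918-11942938 on the minus strand. Of the sites shown, SPL9 (chr2:17589066-17589085, plus strand) is in the coding sequence, SPL4 (chr1:19807090-19807109, plus) and SPL5 (chr3:5140598-5140617, minus) are in the 3′ UTR, SMZ (chr3:20373774-20373794, minus) is in the coding sequence, and TOE2 (chr5:24210889-24210909, plus) falls in the 3′ UTR of its longest annotated mRNA.
miR156a-5p: uGACAGAAgagagugagcac
SPL9: gtgctctctctcTTCTGTCa
SPL4: ctgctctctctcTTCTGTCa
SPL5: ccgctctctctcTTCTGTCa
miR172a: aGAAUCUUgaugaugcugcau
SMZ: ttgcagcatcatcAGGATTCc
TOE2: atgcagcatcatcAGGATTCt
The SPL9 site is shared letter for letter by SPL2, SPL6, SPL10, SPL11, SPL13A, SPL13B and SPL15. A match with at most 3 mismatches to the full miR156a complement was present in 11 SPL genes and absent from SPL1, SPL7, SPL8, SPL12, SPL14 and AT1G76580. Over the longest mRNA of 31342 genes, 0.0415% held such a match to miR156a and 0.0191% to miR172a. A match describes the letters of the mRNA and is not evidence of cleavage in these seedlings.

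The 6 libraries held 16132345 to 26936142 counts, within the range of 13637677 to 29697279 over the series. The 72 h libraries were the shallowest of the 6, with 16994443 and 16132345 counts, against 24324813 to 26936142 at the earlier times (24709742 and 25659381 at 24 h, 24324813 and 26936142 at 48 h). Counts from nuclear rRNA genes were also low at 72 h, at 0.004637 and 0.005176% of a library, against 0.0128 to 0.0277% at 24 and 48 h, and the part of depth and of rRNA in the results was not tested beyond the refits named below. Replicates correlated across genes at r = 0.9927 to 0.9934 on the log2 scale. The first principal component of the 6 libraries held 41.5% of the variance and ordered them 24, 48, 72 h, and the second, with 23.4%, set the 48 h pair apart from the others. Some seed genes differed between the GL48h replicates at trace levels. EM6, an embryo protein, had 1.54 CPM in replicate 2 and 0.0425 in replicate 1, and the storage protein CRU3 had 0.49 CPM and no count. The summed level of the 20 genes of seed reserves and their use was 891.3 CPM in replicate 1 and 891.4 in replicate 2. Differences at trace levels cannot be read from a sum of that size. The source of the EM6 and CRU3 counts was not tested.

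Levels are CPM, the counts scaled to a common total, with TMM scaling, given as replicate 1 then replicate 2 within a time. A gene was called higher or lower at an adjusted p under 0.05 in the quasi-likelihood test of edgeR, after Benjamini-Hochberg adjustment over 21449 genes, and log2 fold changes are given with their SE (n = 2 libraries per group). Nothing in the labels tells whether a pair of libraries came from separate plates or cultures, and p-values therefore reflect the spread of these pairs, which may be technical. RNA came from whole seedlings, in which fewer cells of a type and less RNA per cell cannot be told apart.

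From 24 to 72 h, 1785 genes rose (8.32% of those tested) and 2014 fell (9.39%). Between 24 and 48 h, 1043 genes (4.86%) were higher and 1203 (5.61%) lower at 48 h. Between 48 and 72 h, 524 genes (2.44%) were higher and 667 (3.11%) lower at 72 h, 5.55% in all. These shares of all tested genes are the background for each count of list members below. The lists were chosen with earlier results of these data known, so their counts describe the listed genes. For all 3799 genes called between 24 and 72 h, the libraries of the 2 times did not overlap. The same held for 2244 of the 2246 called between 24 and 48 h and all 1191 called between 48 and 72 h. Lack of overlap is thus shared by nearly every called gene and adds no support to a call. For most genes the course ran one way: the 48 h mean lay between the other two for 1425 of the genes higher at 72 h and for 1562 of those lower. Leaving out 1 library at a time cut the total of each of these 3 comparisons by more than 1.5 times. For 72 against 24 h, 2377 genes were past the test without GL24h replicate 1, 1810 without GL24h replicate 2, 1589 without GL72h replicate 1 and 1585 without GL72h replicate 2. For 48 against 24 h the numbers were 673 and 1422 without GL24h replicates 1 and 2, and 729 and 944 without GL48h replicates 1 and 2. For 72 against 48 h they were 104 and 168 without GL48h replicates 1 and 2, and 14 and 9 without GL72h replicates 1 and 2, so calls between the last 2 days rest on both libraries of each time.

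Several genes of phase change and flowering rose with seedling age. Of 39 genes of phase change and flowering, 29 were tested. At 72 h, 12 were higher and 3 lower than at 24 h, against 8.32% and 9.39% of all tested genes. Their median log2 fold change was 0.34, against 0.00462 over all genes. The list was chosen with earlier results of these data known, so these values describe its members only. SOC1 (AT2G45660), a MADS-box integrator of flowering signals, stood at 13.2 and 12.7 CPM at 24 h, 17.6 and 17.2 at 48 h and 27.6 and 26.4 at 72 h. Each day lay above the day before without overlap, and the log2 fold change from 24 to 72 h was 1.06 ± 0.11 (adjusted p = 3.43e-06). With a library left out, its call for 48 against 24 h was lost each time. Its call for 72 against 48 h was lost without either GL72h library. FUL (AT5G60910), a MADS-box gene that acts beside SOC1, had 0.361 and 0.323, then 0.723 and 1.05, then 1.25 and 1.51 CPM, a change of 2.0 ± 0.35 (adjusted p = 0.000532). AGL24 (AT4G24540), a partner of SOC1, had 4.57 and 3.6, then 6.12 and 5.20, then 10.4 and 9.26 CPM, a change of 1.27 ± 0.19 (adjusted p = 0.000137). All 3 genes were lowest at 24 h and highest at 72 h, and their calls for 72 against 24 h held without any 1 of the 4 libraries.

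**Figure D1:**
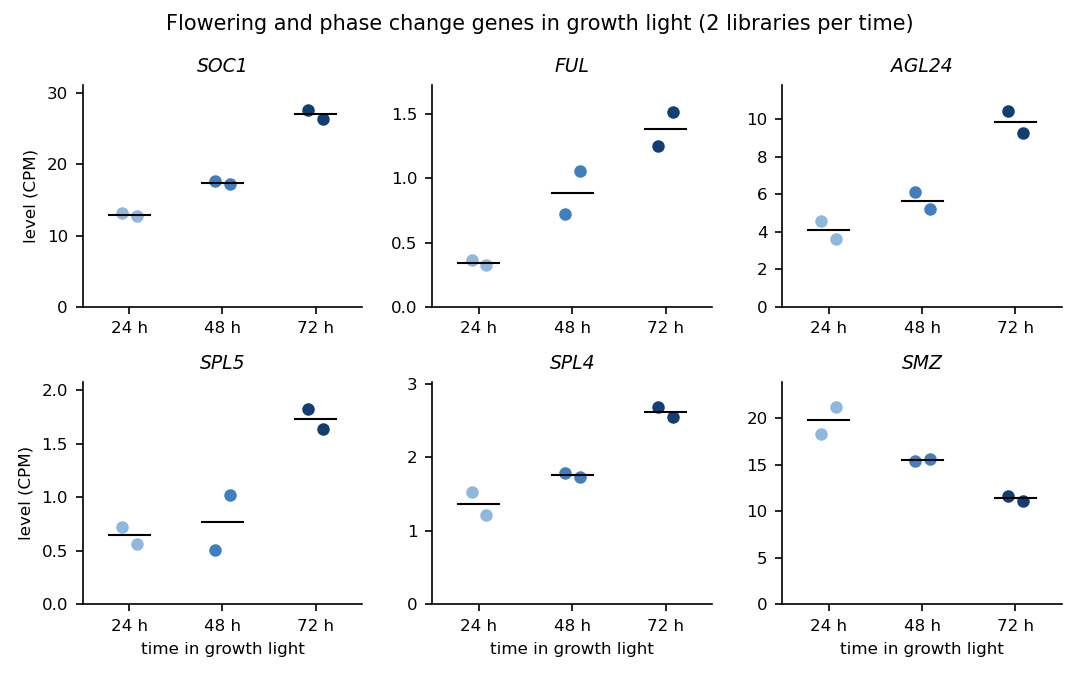
Levels in CPM (vertical axis, from 0) of 6 phase change genes at 24, 48 and 72 h of growth light, with 1 point per library and a bar at the mean of the 2 libraries. SOC1 reached 27.6 and 26.4 CPM at 72 h, against 13.2 and 12.7 CPM at 24 h, while SMZ had 11.7 and 11.1 CPM at 72 h, against 18.3 and 21.2 CPM at 24 h.

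Other flowering genes differed in direction, and several did not pass the test. SVP (AT2G22540), a MADS-box repressor of flowering, was higher at 72 h by 0.53 ± 0.07 on the log2 scale, with 56.8 and 57.6 CPM at 72 h against 38.1 and 41.1 at 24 h. FD (AT4G35900), the bZIP partner of the FT protein, was higher by 0.95 ± 0.22, a call lost without GL72h replicate 2 (adjusted p = 0.0828). FT itself (AT1G65480), the mobile flowering signal, had 1.60 and 1.69 CPM at 72 h against 1.48 and 1.25 at 24 h and did not pass the test (0.26 ± 0.32, adjusted p = 0.612). Its relative TSF (0.28 ± 0.45), the repressor FLC (-0.50 ± 0.26) and the photoperiod factor CO (0.18 ± 0.24) did not pass either, and AP1 was at 0 counts in all 6 libraries. The floral MADS-box gene SEP3 (AT1G24260) went against the others, with 0.627 and 0.303 CPM at 72 h against 1.68 and 1.74 at 24 h, a log2 change of -1.85 ± 0.43. That fall was lost without GL72h replicate 2 (adjusted p = 0.0891).

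Among the SPL factors, the called rises from 24 to 72 h were in genes that carry the miR156 match shown above. Of the 11 genes with the match, 8 were tested, and 6 of these were higher and 0 lower at 72 h, with a median log2 fold change of 0.47. SPL5 (AT3G15270) had 0.722 and 0.566 CPM at 24 h, 0.510 and 1.02 at 48 h and 1.82 and 1.63 at 72 h, and SPL4 (AT1G53160) had 1.52 and 1.21, then 1.78 and 1.73, then 2.68 and 2.54 CPM. Both were highest at 72 h without overlap, with log2 changes of 1.42 ± 0.34 and 0.93 ± 0.26 over 24 h. SPL6 (0.73 ± 0.14), SPL11 (0.48 ± 0.10), SPL10 (0.47 ± 0.11) and SPL2 (0.34 ± 0.09) were the other 4 that rose. SPL9 (0.41 ± 0.18, adjusted p = 0.115) and SPL15 (0.27 ± 0.15, adjusted p = 0.247), the pair known as main age-dependent targets, did not pass the test. SPL9 had 5.24 and 7.32 CPM at 72 h against 5.05 and 4.40 at 24 h, and SPL15 had 4.1 and 4.36 CPM against 3.45 and 3.56. In both genes the 72 h libraries lay above the 24 h ones, SPL9 by a narrow gap.

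The 6 SPL genes without the match, a comparison set chosen after values were seen, gave no call between 72 and 24 h in either direction, with a median of -0.00222. SPL8 (0.59 ± 0.25, adjusted p = 0.1) and SPL14 (-0.17 ± 0.06, adjusted p = 0.0685) were the extremes of that set, and SPL14 passed when only the 6 libraries were fitted (adjusted p = 0.0369). Between 24 and 48 h, 1 gene was higher and 0 lower in each set: SPL8 without the match and SPL11 with it. The difference between the genes with and without the match was not tested. SPL6 and SPL11 kept their calls in all 4 refits with a library left out, whereas SPL10 lost its call without GL72h replicate 1 (adjusted p = 0.0553), SPL5 in 2 refits (highest adjusted p 0.07), SPL2 in 2 (0.138) and SPL4 in 3 (0.133). SPL3 had 1 count in the 6 libraries and 10 in all 26, and its annotated locus overlaps a long noncoding RNA gene, AT2G33815; SPL13A and SPL13B are near-identical copies with 0 counts, so the levels of these 3 genes are uncertain. Of the microRNA loci, MIR156C alone passed the filter, and its primary transcript did not pass the test (0.40 ± 0.31, adjusted p = 0.411). Mature microRNAs were not measured.

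**Figure D2:**
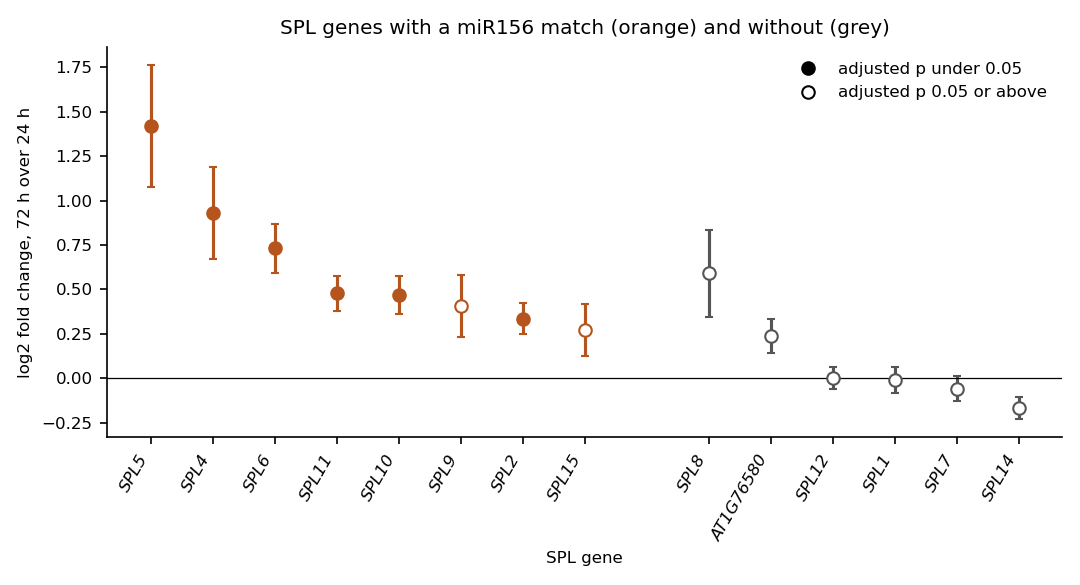
Log2 fold change of each tested SPL gene at 72 h over 24 h in growth light (vertical axis), with bars of 1 SE from the fit, for genes with a miR156 match of at most 3 mismatches (orange) and without (grey). Filled points passed the test at an adjusted p under 0.05: 6 of the 8 genes with the match and 0 of the 6 without.

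Some of the AP2-like repressors that hold a miR172 match fell. SMZ (AT3G54990) had 18.3 and 21.2 CPM at 24 h, 15.4 and 15.6 at 48 h and 11.7 and 11.1 at 72 h, lower on each day without overlap (72 against 24 h, -0.79 ± 0.09, adjusted p = 5.37e-06). TOE2 (AT5G60120) had 40.9 and 45.2, then 38.3 and 37.5, then 34.5 and 32.6 CPM (-0.36 ± 0.07, adjusted p = 0.00186). Both calls for 72 against 24 h held with any 1 library left out, whereas the single-day calls of SMZ did not. TOE1 (-0.08 ± 0.08), AP2 (-0.05 ± 0.08) and TOE3 (0.47 ± 0.17, adjusted p = 0.0526), which hold a match too, did not pass the test, and neither did SNZ (0.14 ± 0.15), whose best match had 4 mismatches. TOE3, higher at 72 h, passed with only the 6 libraries fitted (adjusted p = 0.0266), with no filter (0.028) and under upper-quartile scaling (0.0468).

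Most of the listed flavonoid and anthocyanin genes fell. All 20 genes of the list, which was chosen with earlier results of these data known, were tested. At 72 h, 0 were higher and 17 lower than at 24 h, against 9.39% lower of all tested genes. Their median log2 fold change was -1.10. CHS (AT5G13930), chalcone synthase, the entry enzyme, had 860 and 1123 CPM at 24 h, 797 and 821 at 48 h and 403 and 401 at 72 h. The fall was late: CHS changed by -1.30 ± 0.14 over the 2 days, of which -1.01 lay between 48 and 72 h, a call that held with any 1 library left out, and -0.29 between 24 and 48 h, which did not pass the test. Of the 20 genes, 14 were lower at 72 h than at 48 h, with a median of -0.69, and 5 were lower at 48 h than at 24 h, with a median of -0.36. The 5 calls of the first day became 4 and 0 without GL24h replicates 1 and 2, and 1 and 2 without GL48h replicates 1 and 2.

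Early enzymes fell together with late ones. CHI (chalcone isomerase) changed by -0.96 ± 0.10 and its helper protein CHIL by -0.82 ± 0.08 between 24 and 72 h. F3'H (AT5G07990), the flavonoid 3'-hydroxylase, had 22.8 and 21.2 CPM at 72 h against 55.6 and 77.8 at 24 h (-1.60 ± 0.17), and FLS1, flavonol synthase, had 114 and 104 CPM against 180 and 200 (-0.80 ± 0.10). No library of the later time reached the level of either library of the earlier one. Of the anthocyanin branch, DFR (-1.25 ± 0.21) and LDOX (-1.28 ± 0.20) make the pigment core, UGT79B1 (-1.50 ± 0.22), 5MAT (-1.43 ± 0.22) and AT4G14090 (-1.54 ± 0.19), an anthocyanin glucosyltransferase, decorate it, and TT19 (-1.25 ± 0.20) carries it to the vacuole. Another acyltransferase gene of the HXXXD family, AT1G03940, changed by -1.71 ± 0.23.

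Of the regulators, PAP1 (AT1G56650), the MYB activator of anthocyanin genes, fell most, with 10.1 and 16.4 CPM at 24 h, 9.44 and 10.9 at 48 h and 2.91 and 4.36 at 72 h (-1.88 ± 0.27, adjusted p = 9.8e-05). Its bHLH partner TT8 (-0.96 ± 0.20) and the flavonol activators MYB111 (-0.90 ± 0.17) and MYB11 (-1.14 ± 0.34) also fell, of which MYB11 lost its call in all 4 refits with a library left out (highest adjusted p 0.219) and TT8 without GL24h replicate 2 (adjusted p 0.0535). MYB12, a further flavonol activator, did not pass the test, with 9.29 and 7.81 CPM at 72 h against 9.86 and 10.1 at 24 h (-0.22 ± 0.18). PAP2 stayed below 1 CPM in every library (0.37 ± 0.52), and F3H (-1.06 ± 0.39, adjusted p = 0.0594) had only 95 counts in the 6 libraries and overlaps a long noncoding RNA gene, so its value is uncertain. With 1 library left out at a time, 15 to 16 genes of the list were lower at 72 h than at 24 h. Between 72 and 48 h the count of 14 became 7 without either GL48h library, 2 without GL72h replicate 1 and 1 without GL72h replicate 2, with medians of -0.709, -0.774, -0.782 and -0.801.

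**Figure D3:**
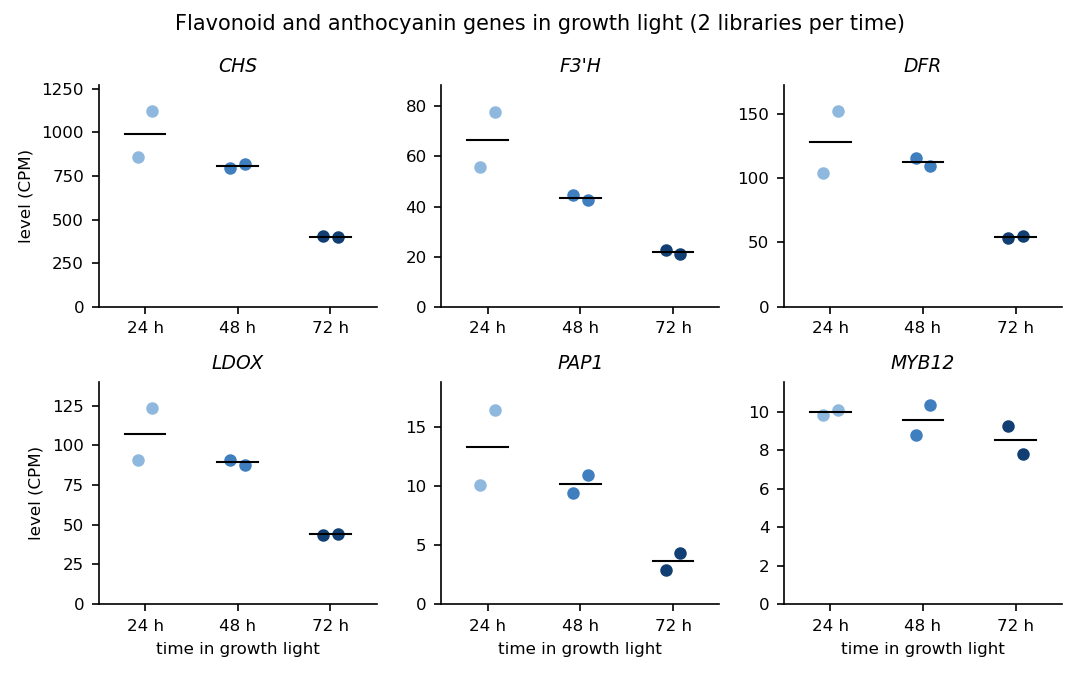
Levels in CPM (vertical axis, from 0) of 6 flavonoid and anthocyanin genes at 24, 48 and 72 h of growth light, 1 point per library, bar at the mean. CHS had 403 and 401 CPM at 72 h, against 860 and 1123 CPM at 24 h, and MYB12 is the only one of the 6 that did not pass the test.

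The listed genes of cytosolic ribosomal proteins, the core of the translation machinery, were mostly low on the middle day. The list was chosen with earlier results of these data known, so its counts describe its members and not all such genes. Over all tested genes 5.61% were lower at 48 h than at 24 h. Of 21 genes, 0 were higher and 17 lower at 48 h than at 24 h, with a median log2 fold change of -0.34 against 0.00099 over all genes. At 72 h, 7 were higher and 0 lower than at 48 h (median 0.18). Their summed level was 7141 and 6837 CPM at 24 h, 5427 and 5695 at 48 h and 6462 and 6431 at 72 h. RPL5A (AT3G25520), a large subunit protein, had 622 and 579, then 458 and 487, then 625 and 634 CPM. RPS6A, a small subunit protein and known kinase target, had 423 and 411, then 299 and 322, then 389 and 387 CPM. In both genes the 48 h libraries lay below all 4 others. Some genes of the RPL4 protein stayed down: AT5G02870 had 416 and 409 CPM at 72 h against 564 and 562 at 24 h (-0.45 ± 0.07), and AT3G09630 had 343 and 342 CPM against 439 and 422 (-0.33 ± 0.07). The 7 calls between 72 and 48 h became 0 without any 1 of the 4 libraries, and 4 genes were lower at 72 h than at 24 h, which became 2 in each such refit, AT5G02870 and AT3G09630 among them. These genes come as close paralogs, so the split of reads between copies is uncertain.

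A test of the second day's change minus the first day's change called 507 genes with a positive difference (2.36%) and 458 with a negative one (2.14%). Such a difference marks a bend in the course at 48 h, and both single days were called in opposite directions for 126 of the 507 and 62 of the 458. These 965 genes (4.5%) became 76 to 1146 with 1 library left out. Of the 21 ribosomal protein genes, 12 had a positive and 0 a negative difference by this test, with a median of 0.49. The drop on the first day, 17 genes, became 6 without GL24h replicate 1, 4 without GL48h replicate 1, 15 without GL24h replicate 2 and 14 without GL48h replicate 2. The 12 positive differences became 0 without either GL48h replicate, 2 without GL24h replicate 1, 4 without GL72h replicate 1 and 6 without GL72h replicate 2, and the median difference stayed between 0.409 and 0.579.

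Some cell division genes were also low at 48 h. Of 32 genes, 0 were higher and 7 lower at 48 h than at 24 h (median -0.23), and 9 were higher and 0 lower at 72 h than at 48 h (median 0.27). CDC20.2 (AT4G33260), an activator of the complex that ends mitosis, had 11.8 and 12.0 CPM at 24 h, 10.5 and 9.75 at 48 h and 17.3 and 16.9 at 72 h. Between 24 and 48 h this gene was not called. Its rise over both days was 0.53 ± 0.10 (adjusted p = 0.00126), and the calls for 72 h against 24 h and against 48 h held with any 1 library left out. CDKB2;1, a mitotic kinase, had 22.9 and 22.2, then 18.3 and 18.1, then 25.1 and 22.3 CPM. It was lower at 48 h than at 24 h (-0.31) and higher at 72 h than at 48 h (0.38), while CYCB1;1, a mitotic cyclin, did not pass either test (-0.33 and 0.41). Each CDKB2;1 call was lost whichever library was left out, with changes from -0.33 to -0.29 and from 0.29 to 0.46.

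At 72 h against 24 h, 5 of the 32 cell division genes were higher and 2 lower. Over all tested genes 8.32% were higher and 9.39% lower, 17.7% in all. The total for the list is near that share and is not read as a result about cell division. CDC20.2, its neighbour and copy CDC20.1 (0.43 ± 0.12), CYCD3;1 (0.28 ± 0.09), a cyclin of cell cycle entry, KNOLLE (0.36 ± 0.12), a syntaxin of the new cell wall, and CYCB2;2 (0.48 ± 0.12) were higher. CYCD3;3 (-0.33 ± 0.09) and PCNA1 (-0.33 ± 0.09), the sliding clamp of DNA replication, were lower. Apart from CDC20.2 these calls were each lost in 3 or 4 of the 4 refits with a library left out, with highest adjusted p-values between 0.119 and 0.275. The 7 lower calls of the first day became 0 and 4 without GL24h replicates 1 and 2, and 1 without either GL48h library. The 9 calls at 72 h against 48 h became 1, 2, 1 and 1 without GL48h replicates 1 and 2 and GL72h replicates 1 and 2, with medians from 0.231 to 0.302.

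**Figure D4:**
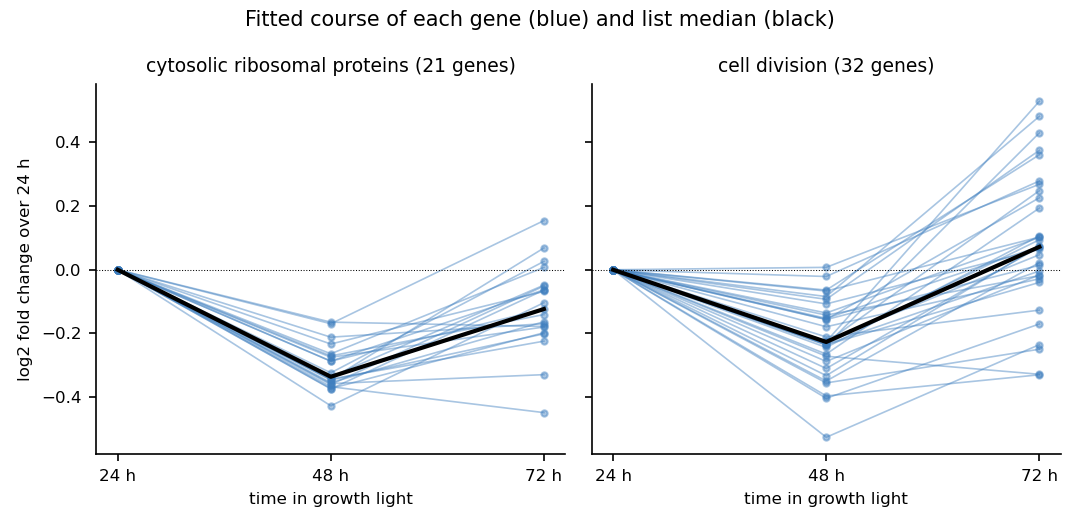
Fitted log2 fold change over 24 h (vertical axis) at 24, 48 and 72 h of growth light for each of 21 cytosolic ribosomal protein genes and 32 cell division genes (blue lines), with the list median in black. The ribosomal medians were -0.34 at 48 h and -0.12 at 72 h, and the cell division medians -0.23 at 48 h and 0.07 at 72 h.

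Some genes had their high point at 48 h. LHCB4.3 (AT2G40100), an antenna protein of photosystem II, had 51.4 and 59.1 CPM at 24 h, 94.7 and 103 at 48 h and 63.9 and 65.8 at 72 h. AOC2, an enzyme of jasmonate synthesis, had 188 and 193, then 301 and 287, then 187 and 215 CPM, and MYB23, a trichome regulator, 3.77 and 3.27, then 6.04 and 7.68, then 3.82 and 4.18 CPM. In all 3 the 48 h libraries were above the other 4, and the second day's change minus the first passed the test (adjusted p = 0.00066, 0.00882 and 0.00199). LHCB4.3 kept that call in all 6 refits, AOC2 lost it without either GL48h library (highest adjusted p 0.11) and MYB23 without GL48h replicate 2 (0.0672). In the jasmonate list of 22 tested genes, 4 were higher at 48 h than at 24 h and 4 lower at 72 h than at 48 h. VSP2, AOC2 and PDF1.2, whose level rested on 1 library, were among the 4 higher genes, of which VSP2 alone kept its call with any 1 of the 4 libraries left out. The number of higher genes was 1 without GL24h or GL48h replicate 1 and 3 without either replicate 2, and the number of lower genes at 72 h was 1 without either GL48h library and 0 without either GL72h library. VSP2, a vegetative storage protein, kept its rise: 109 and 114 CPM at 72 h against 43.7 and 45.7 at 24 h (1.32 ± 0.22).

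Some genes of auxin response and cell elongation were higher on both later days. Of 26, 8 were higher and 1 lower at 72 h than at 24 h (median 0.36), 7 were higher and 0 lower at 48 h than at 24 h, and 0 were higher and 1 lower at 72 h than at 48 h. EXPA8 (AT2G40610), an expansin that loosens cell walls, had 22.6 and 18.3 CPM at 24 h, 67.5 and 59.7 at 48 h and 59.7 and 63.9 at 72 h (72 against 24 h, 1.59 ± 0.13, adjusted p = 1.89e-07). EXPA1, another expansin, had 151 and 146, then 230 and 219, then 264 and 245 CPM (0.78 ± 0.10). Both stood without overlap above 24 h on both later days, and their calls held with any 1 library left out. The 8 higher calls became 6 and 4 without GL24h replicates 1 and 2, and 5 and 3 without GL72h replicates 1 and 2, and the 7 of the first day became 4, 5, 4 and 4 without GL24h replicates 1 and 2 and GL48h replicates 1 and 2. EXPA10 was the 1 lower gene (-0.49 ± 0.12). Small auxin-up RNAs rose from low levels, SAUR23 by 1.23 ± 0.27 and SAUR21 by 0.99 ± 0.23, and these near-identical genes share sequence, so their split is uncertain.

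Photosynthesis genes changed little in size, with log2 fold changes between -0.38 and 0.56 over the antenna, core and Calvin cycle lists. Of 21 antenna genes, 1 was higher and 0 lower at 72 h than at 24 h, of 29 core and electron transport genes 4 were higher and 1 lower, and of 20 Calvin cycle genes 1 was higher and 0 lower. Over all tested genes 8.32% were higher and 9.39% lower, a total share near that of the core list. The antenna rise was LHCB7 (0.42 ± 0.08), and the Calvin cycle rise was CP12-2, a regulator of the cycle (0.56 ± 0.10). FNR1 (0.40 ± 0.08) and FNR2 (0.30 ± 0.08), ferredoxin NADP reductases, rose, while FD1, a ferredoxin, fell (-0.32 ± 0.08). The 4 higher calls became 1 without GL24h or GL72h replicate 1 and 2 without either replicate 2, and FNR1 kept its call in all 4 refits. RBCS1A, a Rubisco small subunit, did not pass the test (-0.23 ± 0.12), nor did the antenna gene LHCB2.2, whose times overlapped, with 798 and 859 CPM at 72 h against 791 and 870 at 24 h. The light stress proteins ELIP2 (-1.53 ± 0.21) and ELIP1 (-0.47 ± 0.13) were lower at 72 h, with 8.84 and 6.78 CPM for ELIP2 against 22.4 and 22.8 at 24 h.

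Glucosinolate genes changed in both directions. Of 27, 3 were higher and 11 lower at 72 h than at 24 h, with a median of -0.23. The lower ones were synthesis genes. MAM1 (AT5G23010), which lengthens methionine side chains, had 171 and 170 CPM at 72 h against 266 and 339 at 24 h (-0.83 ± 0.15). CYP79F1 (-0.59 ± 0.15), CYP83A1 (-0.52 ± 0.11) and BCAT4 (-0.43 ± 0.12) of the same aliphatic pathway were lower too. The higher ones were the myrosinases TGG1 (0.39 ± 0.08) and TGG2 (0.92 ± 0.12), which break glucosinolates down, and the regulator MYB28 (0.23 ± 0.07). TGG2 (AT5G25980) had 992 and 992 CPM at 72 h against 510 and 542 at 24 h and was already at 906 and 1077 at 48 h. The 11 lower calls became 4 without GL24h replicate 2, 5 without GL72h replicate 1, 7 without GL72h replicate 2 and 10 without GL24h replicate 1, and MAM1, TGG1 and TGG2 kept their calls in all 4 refits. MYB28 lost its call in 3 of them (highest adjusted p 0.301).

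Salicylic acid and defence genes did not move as a block. Of 19, 3 were higher and 3 lower at 72 h than at 24 h. PR1 (AT2G14610), the classic defence marker, rose from a trace, with 0.601 and 0.242 CPM at 24 h, 1.87 and 0.377 at 48 h and 3.19 and 4.96 at 72 h (3.25 ± 0.59, adjusted p = 0.00129). LURP1 (AT2G14560), a pathogen response gene, had 8.58 and 15.2, then 30.3 and 31.2, then 54.1 and 72.5 CPM (2.41 ± 0.33). PCC1 (AT3G22231), named for pathogen and circadian control and not one of the 19, had 8.46 and 10.3, then 26.9 and 32.8, then 63.5 and 79.5 CPM (2.93 ± 0.31). LURP1 and PCC1 were higher on each day than on the day before without overlap, whereas PR1 overlapped between 24 and 48 h. All 3 kept their calls for 72 against 24 h in every refit with a library left out. None of their calls for 72 against 48 h held in every refit, nor did that of LURP1 for 48 against 24 h. PR5, a thaumatin-like defence protein, went down instead, with 4.67 and 4.6 CPM at 72 h against 10.4 and 16.2 at 24 h (-1.52 ± 0.19). Beside PR1 and LURP1, the other higher gene of the list was WRKY54 (0.88 ± 0.19). The receptor NPR1 had a change of -0.02 ± 0.07 that did not pass the test.

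Senescence and chlorophyll breakdown genes gave 4 higher and 5 lower of 19 tested. NAP (AT1G69490), a NAC factor of leaf senescence, had 2.17 and 2.0 CPM at 72 h against 0.601 and 0.364 at 24 h (2.1 ± 0.34). WRKY53 (AT4G23810), an early senescence regulator, had 1.43 and 1.45 CPM at 72 h against 4.05 and 5.33 at 24 h (-1.70 ± 0.25). SAG12, the late senescence protease, was at 0 counts in all 6 libraries, which allows a level of up to 0.182 CPM in the shallowest one, taking 3 counts as the limit. SEN1 varied within times (11.3 and 3.11 CPM at 24 h) and did not pass the test. The 4 higher calls became 2, 1, 1 and 2 and the 5 lower ones 3, 2, 2 and 1 without GL24h replicates 1 and 2 and GL72h replicates 1 and 2, and NAP and WRKY53 kept theirs. Of 13 tested genes of seed reserves and their use, 1 was higher and 1 lower at 72 h than at 24 h. The lower one was SESA2, a seed storage albumin, and the storage protein gene CRA1 did not pass the test. ICL, isocitrate lyase, was the higher one (1.37 ± 0.37), with 18.6 and 31.5 CPM against 14.3 and 4.97. It lost the call without GL24h replicate 2 or GL72h replicate 2.

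Clock genes rose slightly where they moved. Of 21, 9 were higher and 0 lower at 72 h than at 24 h, with a median of 0.18. TOC1, the evening component, had 72.8 and 66.2 CPM at 72 h against 55.7 and 58.1 at 24 h (0.29 ± 0.07), and PRR7 had 45.4 and 51.0 CPM against 34.2 and 30.8 (0.57 ± 0.16). The morning genes LHY (-0.19 ± 0.11) and CCA1 (-0.0071 ± 0.09) did not pass the test, and the fitted CCA1 value was above 0 under upper-quartile scaling (0.005062). The 9 calls became 7 and 4 without GL24h replicates 1 and 2, and 4 and 3 without GL72h replicates 1 and 2.

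In the phosphate, iron, sulfur and root hair lists, the genes that passed the test fell. Over all tested genes 9.39% were lower at 72 h than at 24 h, and most of the refit counts given below lie near or below that share. Phosphate starvation genes gave 0 higher and 5 lower of 17, with PHT1;4 (AT2G38940), a phosphate transporter, at 16.5 and 17.1 CPM at 72 h against 29.2 and 31.2 at 24 h (-0.84 ± 0.14). Iron genes gave 0 higher and 4 lower of 19, among them OPT3, an iron signalling transporter (-0.58 ± 0.12), and FRO3, a ferric reductase (-0.40 ± 0.11). Sulfur genes gave 0 higher and 2 lower of 9, led by SULTR1;2, a root sulfate transporter (-0.50 ± 0.15), and APR3, an enzyme of sulfate reduction (-0.44 ± 0.09). Root hair genes gave 0 higher and 3 lower of 9, and their summed level was 104.9 and 96.34 CPM at 72 h against 147.7 and 148.6 at 24 h. LRX1, a root hair wall protein, had 16.5 and 13.2 CPM at 72 h against 30.4 and 30.6 at 24 h (-1.03 ± 0.27), a call lost without GL24h replicate 2 or GL72h replicate 2 (highest adjusted p 0.12). Without GL24h replicate 2 and GL72h replicates 1 and 2, the phosphate calls became 1, 2 and 1. The iron calls became 1 without GL24h replicate 1 or either GL72h library, the sulfur calls 1 in all 4 refits, and the root hair calls 1 without GL24h replicate 2 and 0 without GL72h replicate 2. PHT1;4, OPT3 and APR3 kept their calls in all 4.

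Levels of markers of other cell types are set beside these values, though they do not give the make-up of the sample. The shares over all tested genes were 8.32% higher and 9.39% lower. Endodermis and suberin genes gave 0 higher and 0 lower of 16, with a summed level of 259.2 and 254.2 CPM at 72 h against 260.7 and 275.1 at 24 h. Stomatal lineage genes gave 0 higher and 0 lower of 10 (138.5 and 138.3 CPM against 123.8 and 126.4), and trichome genes 0 and 0 of 7 (52.67 and 54.28 CPM against 49.28 and 46.95). Xylem and secondary wall genes gave 0 higher and 2 lower of 13 (206 and 202.9 CPM against 227.5 and 242.3). Root tip genes gave 1 higher and 0 lower of 10 (28.9 and 31.89 CPM against 28.75 and 25.46). Meristem and leaf development genes gave 1 higher and 1 lower of 24 tested (498.4 and 506.8 CPM against 524.1 and 514.2). Of the 26 genes of that list, 1 was at 0 in all 6 libraries. No gene of the other lists in this paragraph was at 0 in all 6, and the part of these lists in the nutrient results was not tested.

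Over all genes, the largest rises from 24 to 72 h with at least 5 CPM were AT2G17850 (a rhodanese family protein, 3.3 ± 0.51), AT1G67105 (a noncoding RNA, 3.13 ± 0.31), AT1G19530 (3.0 ± 0.39), PCC1, AT2G32160 (a methyltransferase family protein, 2.68 ± 0.31), AT4G39675 (2.58 ± 0.33), AT5G59670 (a leucine-rich repeat kinase, 2.47 ± 0.23) and AT4G27450 (2.43 ± 0.20). AT4G27450 had 12.4 and 9.01 CPM at 24 h, 32.7 and 47.9 at 48 h and 48.8 and 67.0 at 72 h, without overlap between 24 h and the later days. All 8 calls held with any 1 library left out. The largest fall was AT4G36700, a cupin family protein, with 19.5 and 17.1 CPM at 24 h, 2.17 and 3.2 at 48 h and 1.43 and 1.69 at 72 h (-3.55 ± 0.37). AT3G05950, another cupin (-3.01 ± 0.53), AT3G02480, a late embryogenesis abundant protein (-2.07 ± 0.54), AT4G22470, a lipid transfer protein family member (-1.85 ± 0.39), and AT1G52100, a lectin (-1.80 ± 0.19), were also among the 8 largest falls, with PAP1, the rRNA gene AT3G41768 (-2.16 ± 0.57) and ATMG01390 (-1.81 ± 0.57). Of these 8 falls, ATMG01390 lost its call in all 4 refits (highest adjusted p 0.185), AT3G41768 in 3 (0.101) and AT3G02480 in 2 (0.0887), and the other 5 kept theirs.

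The first day had its own leading genes. PP2-A5 (AT1G65390), a phloem protein gene, had 7.62 and 6.67 CPM at 24 h, 0.935 and 0.527 at 48 h and 2.11 and 2.60 at 72 h (48 against 24 h, -3.3). CYP71B19, a cytochrome P450, was higher at 48 h (5.44 and 5.08 CPM) than at 24 h (1.08 and 0.566), a change of 2.66. SUS4, a sucrose synthase, had 92.5 and 145 CPM at 48 h against 24.7 and 22.4 at 24 h (2.33). PDF1.2, a defensin, led the list of rises at 7.03 only through GL48h replicate 1, which had 12.0 CPM, while replicate 2 had 0.188 CPM and the 24 h libraries 0.0401 and 0.0404. Without GL48h replicate 1 its adjusted p was 0.862. Between 48 and 72 h, AT2G32160 (1.71), AT3G15450 (1.53) and PCC1 (1.26) led the rises, and the rRNA gene AT3G41768 (-2.16), ATCG00490 (-2.08), ATCG00020 (-1.90) and PAP1 (-1.50) were among the 8 largest falls. Without GL48h replicate 1, which had the highest plastid share of counts of the 6 libraries (0.0325%), ATCG00020 was at -0.90 (adjusted p 0.459), ATCG00490 at -1.33 (0.335) and AT3G41768 at -1.47 (0.262). All 7 of these genes lost the call in 3 or 4 of the 4 refits.

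The same interval in high light moved more genes: 3799 were called between 72 and 24 h in growth light (17.7%) and 9288 in high light (43.3%), of which 4327 were higher and 4961 lower (23.1% of all tested), a difference in counts that is not itself tested. A gene-wise test of the growth light change minus the high light change called 3088 genes (14.4%), 1786 positive (8.33%) and 1302 negative (6.07%). That split depended on scaling, with 1367 positive and 1819 negative under upper-quartile factors, under which the high light interval had 5500 higher and 3978 lower genes against 4327 and 4961. The count of 3088 became 1954 without GL72h replicate 1 and 2015 without GL72h replicate 2. The 2 intervals share no library. Of the 1785 genes that rose in growth light, 1102 also rose in high light, which is 61.7% of the growth light genes and 25.5% of the high light genes. Of the 2014 that fell in growth light, 1402 also fell in high light, 69.6% and 28.3%. For scale, 4327 of all 21449 tested genes rose in high light and 4961 fell (23.1%). The 72 h libraries were the shallower ones in both lights, with 13637677 and 17162530 counts at 72 h of high light against 24346179 and 26384262 at 24 h, and the part of depth in this overlap was not tested.

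SOC1, SMZ and CHS changed in the same direction in both lights. For SOC1 the log2 change was 1.06 ± 0.11 in growth light and 0.98 in high light, with a difference of 0.08 that did not pass, and for SMZ it was -0.79 and -0.88. For CHS it was -1.30 and -1.47, a difference of 0.17 ± 0.19. Over the flowering list 0 genes had a positive and 2 a negative difference (TOE1, -0.47, and SPL15, -0.84), and over the flavonoid list 3 had a positive and 3 a negative one. PAP1, MYB111 and TT19 fell further in growth light: PAP1 changed by -1.88 there and by -0.69 in high light, a difference of -1.18 ± 0.32. CHI and UGT78D2, a flavonoid glucosyltransferase, fell further in high light, CHI by -0.96 in growth light and -1.62 in high light, a difference of 0.66 ± 0.14. PAP2, at a trace, had 0.37 in growth light and -1.87 in high light (2.24 ± 0.56). A difference that misses the threshold does not show that the changes are the same.

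Other groups changed differently. PCC1 had a log2 change of 2.93 ± 0.31 in growth light and -2.27 in high light, a difference of 5.19, and AT4G36700 had -3.55 ± 0.37 and 1.34, a difference of -4.89. NAP had 2.1 ± 0.34 in growth light and -0.89 in high light, a difference of 2.99. Of the 15 genes of abscisic acid and dehydration, 1 was higher and 0 lower in growth light (median -0.05), while 0 were higher and 9 lower in high light (median -1.22), and the difference was called for 9 genes, all positive. Ribosomal protein genes had 0 higher and 4 lower of 21 in growth light (median -0.12) and 0 higher and 20 lower in high light (median -0.47), with 13 positive and 0 negative differences, which became 5 without GL24h or HL72h replicate 2 and 8 without GL72h replicate 1. Antenna genes had 1 higher and 0 lower of 21 in growth light (median 0.04) and 14 higher and 0 lower in high light (median 0.39), with 0 positive and 7 negative differences.

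**Figure D5:**
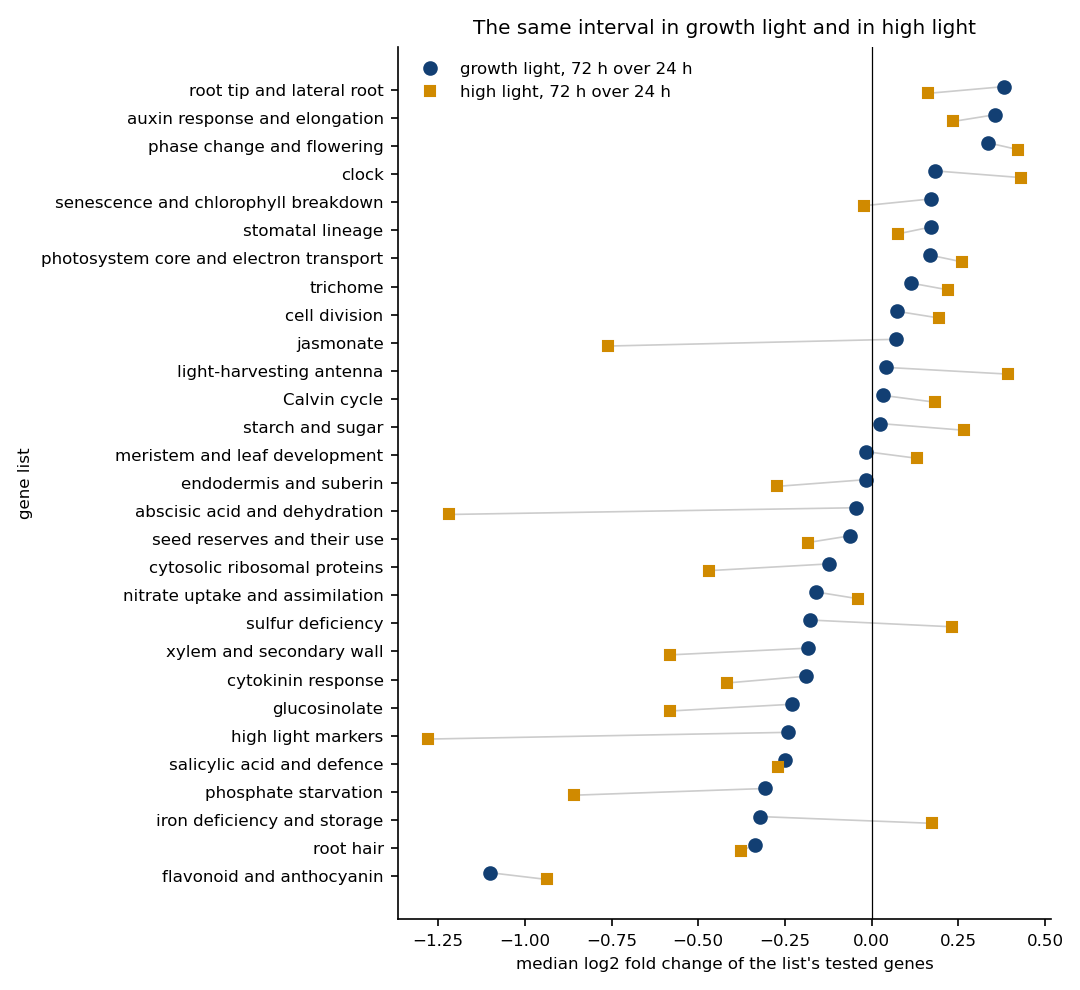
Median log2 fold change (horizontal axis) from 24 to 72 h over the tested genes of each of 29 lists, in growth light (blue circles) and in high light (orange squares). The flavonoid medians lie close, at -1.10 in growth light and -0.94 in high light, while the abscisic acid and dehydration medians are -0.05 in growth light and -1.22 in high light.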

How the data were processed

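Read counts per gene were deposited by the authors for 26 libraries, 13 groups of 2. The submitters' processing notes name HTSeq 0.6.0, TopHat2 2.1.1, edgeR and TAIR10, without roles or settings. The tables held 33602 gene IDs, of which 32835 matched the TAIR10.1 reference used for names and sequences. The analysis used edgeR 4.0.16 (R 4.3.3). Genes passing filterByExpr (minimum count 10) were kept (21449), scaled by TMM (factors 0.924 to 1.09) and fitted as 1 mean per group over all 26 libraries (13 residual degrees of freedom, common dispersion 0.00428, biological coefficient of variation 6.54%). Each contrast was a two-sided quasi-likelihood test with Benjamini-Hochberg adjustment at 0.05. An SE was obtained as the absolute log2 fold change over the square root of F. A gene with no count may lie up to 3 counts, 0.113 to 0.182 CPM over the 6 libraries; such limits cover counting error only.

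Members and gene lists were chosen with earlier results of these data known. The genes named are the 8 largest rises and falls per growth light contrast with at least 5 CPM and no overlap, up to 4 called members per list, and a fixed set of sentinels; further list members, and genes high or low at 48 h, were named after their values were seen. Site matches were counted as plain mismatches to the full complement in the longest annotated mRNA of each gene. Alternatives were DESeq2 1.42.0, other scaling factors, no filter, a 2-fold minimum, other sets of libraries, a replicate block, each library left out and, added after the data were seen, thinning and leaving out organelle and rRNA genes. The fits were tested on simulated data.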

Additional observations from a re-analysis of the deposited data

Results flagged for a closer look

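The change from 24 to 72 h was tested for a difference between growth light and high light gene by gene, and 3088 genes of the 21449 tested passed. The genes below are those named above that passed, each with its log2 difference, growth light change minus high light change (quasi-likelihood test of edgeR, Benjamini-Hochberg adjusted, 2 libraries per group).

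Some genes had opposite directions in the 2 lights. PCC1 differed by 5.19, NAP by 2.99 and WRKY54 by 1.51, each higher at 72 h in growth light and lower in high light. AT4G36700 differed by -4.89, FRO3 by -1.31, CYCD3;3 by -1.10, SULTR1;2 by -1.0, PCNA1 by -0.59 and FD1 by -0.55, each lower at 72 h in growth light and higher in high light.

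Of genes that rose in growth light, AT4G39675 differed by 1.74 and EXPA1 by 0.51, with a smaller rise in high light, while PRR7 differed by -0.74, with a larger rise in high light. Of genes lower at 72 h in both lights by the test, PR5 differed by 1.74, ELIP2 by 1.69, AT1G52100 by 1.56, CYP79F1 by 0.95, MAM1 by 0.87, UGT78D2 by 0.68, CHI by 0.66 and AT3G09630 by 0.30, with a deeper fall in high light. PAP1 differed by -1.18 and TT19 by -0.79, with a deeper fall in growth light.

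The rest passed the test in 1 of the intervals. AT5G59670 differed by 2.2, higher in growth light and not past the test in high light. WRKY53 differed by -1.47, OPT3 by -0.75 and MYB111 by -0.70, lower in growth light and not past the test in high light. PAP2 differed by 2.24, LHY by 0.66, RPL5A by 0.54 and RPS6A by 0.49, lower at 72 h in high light and not past the test in growth light. SPL15 differed by -0.84, LHCB4.3 by -0.66 and TOE1 by -0.47, higher at 72 h in high light and not past the test in growth light. Groups of 2 libraries are too small for an outlier test.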

How the results depend on the processing

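Calls between neighbouring days depended on the fit. Of 3561 values of 232 gene results, most of them for 72 against 24 h, recomputed under the alternatives, 3083 kept direction and side of the threshold, 431 lost the call, 15 gained it and 32 changed sign, none of them called. The sign changes, all for 72 against 24 h, were under upper-quartile scaling CCA1 (0.005062), LHCB2.2 (0.009386) and SPL1 (0.004411); under relative log expression size factors SPL12 (-0.009802, and -0.009749 with DESeq2); with the 12 growth light libraries LHCB2.2 (0.00328); and thinned TSF (-0.05858), LHCB2.2 (0.004266), NPR1 (0.04848), SPL12 (-0.003693), MIR156C (-0.1637), CO (-0.0728) and MYB23 (-0.01584). With 1 library left out, genes that changed sign ran from -0.5683 to 0.782 (TSF), -0.07342 to 0.06105 (CCA1; 0.008832 without GL72h replicate 1), -0.01723 to 0.1545 (CDKB2;1), -0.07108 to 0.06759 (LHCB2.2; 0.05208 without GL72h replicate 1), -0.06622 to 0.03513 (NPR1), -0.08194 to 0.7343 (PAP2), -0.09415 to 0.418 (SNZ), -0.0664 to 0.05217 (SPL1), -0.02615 to 0.1801 (AOC2), -0.01099 to 0.01951 (SPL12), -0.06042 to 0.7641 (MIR156C), -0.09869 to 0.007163 (AP2), -0.005908 to 0.3847 (CO) and -0.1814 to 0.05659 (SPL7). A 2-fold minimum left 425 genes (72 against 24 h), 282 (48 against 24 h), 75 (72 against 48 h), 258 (second minus first day), 1581 (high light) and 689 (growth minus high light). Fitting only the libraries of a comparison gave 3392 for 48 against 24 h, 2666 for 72 against 48 h and 2182 for second minus first day. Fitting all 12 growth light libraries gave 1276, 461 and 262 for these, and 2935 genes with any difference among the 3 times, against 4650. No filter on low counts gave 1969 (72 against 48 h) and 1657 (second minus first day). Thinning all libraries to one total, an alternative added after the data were seen, gave 1469, 684 and 507, and 3064 with any difference. With 1 library left out the counts ran from 1585 to 2377 (72 against 24 h), 673 to 1422 (48 against 24 h), 9 to 168 (72 against 48 h), 2459 to 3416 (any), 76 to 1146 (second minus first day), 7073 to 7666 (high light) and 1954 to 2683 (growth minus high light); a lone library was then taken to vary like the other groups. The cause of these changes was not tested. DESeq2 gave 3025, 1769, 1174, 848, 7873 and 2537 genes for the 6 contrasts in the same order without the joint test. Replicate numbers did not pair the samples, with correlations of deviations of -0.0945, -0.0214 and 0.0408, and the replicate block gave 3723, 2188, 1171, 4510, 934, 9209 and 3036 genes. The lower depth at 72 h and 2 libraries per time limit what small or low-level changes can be called.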

Other observations

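Most of a group of genes that plants switch on under low oxygen rose between 24 and 48 h. The 20 genes were put together after their values were seen, so their counts describe and support nothing: 19 were higher at 72 h than at 24 h (median log2 fold change 1.57), 19 were higher at 48 h than at 24 h (median 1.61), and 0 were called between 72 and 48 h (median -0.0285). SUS4, a sucrose synthase, had 24.7 and 22.4 CPM at 24 h, 92.5 and 145 at 48 h and 89.6 and 141 at 72 h. ADH1, alcohol dehydrogenase, had 49.1 and 48.6, then 152 and 223, then 138 and 198 CPM, and HB1, a haemoglobin, 21.3 and 21.4, then 66.5 and 98.3, then 66.8 and 84.3 CPM. In each of these genes replicate 2 stood above replicate 1 at 48 and at 72 h, by more than the replicates differed at 24 h. AT2G17850, AT1G19530, AT4G39675 and AT4G27450, among the largest rises above, belong to the same 20 genes. In the same interval of high light 11 of the 20 were higher and 1 lower at 72 h (median 0.73).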
